A study of Mus musculus with 6 samples.

Results

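Messenger RNA of 8 genes listed for the surface epithelium and mesothelium of the ovary was described here in Dennd1a transgenic and wild-type mice. They are the simple-epithelial keratins Krt7, Krt8, Krt18 and Krt19, the uroplakins Upk1b and Upk3b, and the surface glycoproteins Muc16 and Msln. The 8 genes were taken by symbol from the deposited table of 18280 genes, and all 8 had enough counts to be among the 14124 genes tested. The libraries came from ovaries labelled Dennd1aTG (TG, 3 libraries) and WT (3 libraries), and all 6 libraries are labelled as taken after injection of PMSG, a gonadotropin that drives follicle growth, with 44 h given as the time. Per the labels the tissue was ovary, total RNA was extracted and the libraries were run on a BGISEQ-500 instrument. The promoter and tissue range of the transgene, its founder line, the strain, the age and any pooling of animals are not given in the sources used here. Nothing in the labels says whether bursa, oviduct or fat was trimmed from the ovaries.

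The ovary is covered by a simple epithelium that is continuous with the mesothelium lining the body cavity. Its cells are joined to each other, carry intermediate filaments of simple keratins and bear a glycocalyx of mesothelin and mucins, and the layer opens at ovulation and closes again afterwards. Keratin filaments form only from a type II chain paired with a type I chain, and Krt7 and Krt8 are type II while Krt18 and Krt19 are type I. Uroplakins are best known as the plaque proteins of the bladder lining, and Upk3b and Msln are also widely used as mesothelial markers in the mouse.

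Flanks 5′ of 4 members are shown because Krt8 and Krt18, which are neighbours on the chromosome and partners in the filament, had different patterns across the libraries, and because Krt7 and Upk3b were among the most variable members. Of the 8 members 5 were found in the RefSeq promoter table (build GRCm38.p6), and Krt19, Upk1b and Msln were not matched. The 250 bases before the annotated start are given 5′ to 3′ on the strand of the gene, and capitals mark matches on either strand to GGGCGG (a GC box), GGAATG (the core bound by TEAD factors) and TGANTCA (an AP-1 element).
Krt8 (chr15:102004343-102004592, minus strand): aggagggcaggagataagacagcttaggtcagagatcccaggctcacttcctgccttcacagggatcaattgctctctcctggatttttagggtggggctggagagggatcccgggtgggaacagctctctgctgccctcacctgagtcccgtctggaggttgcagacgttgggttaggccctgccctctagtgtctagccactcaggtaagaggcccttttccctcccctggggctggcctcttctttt
Krt18 (chr15:102027966-102028215, plus strand): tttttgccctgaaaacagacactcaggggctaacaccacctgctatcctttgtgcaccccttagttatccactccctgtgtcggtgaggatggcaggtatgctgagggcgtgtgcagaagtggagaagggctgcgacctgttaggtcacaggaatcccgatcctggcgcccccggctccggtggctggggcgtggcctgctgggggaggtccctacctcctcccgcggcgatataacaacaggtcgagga
Krt7 (chr15:101412153-101412402, plus strand): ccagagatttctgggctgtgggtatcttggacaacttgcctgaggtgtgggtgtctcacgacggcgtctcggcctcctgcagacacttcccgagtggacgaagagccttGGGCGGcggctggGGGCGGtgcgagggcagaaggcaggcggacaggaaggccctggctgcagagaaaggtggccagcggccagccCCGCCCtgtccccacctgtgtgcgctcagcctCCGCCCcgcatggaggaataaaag
Upk3b (chr5:136038246-136038495, plus strand): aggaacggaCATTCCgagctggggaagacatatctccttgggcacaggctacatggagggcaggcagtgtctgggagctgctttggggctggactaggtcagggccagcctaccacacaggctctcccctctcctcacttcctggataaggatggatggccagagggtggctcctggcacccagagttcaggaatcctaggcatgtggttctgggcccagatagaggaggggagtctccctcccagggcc
The GC box was matched in the Krt7 window at positions -141, -128, -56 and -24 from the start, and 32.7% of all 32851 promoters in the table hold it. The GGAATG match of Upk3b lies at position -241, and 12.6% of promoters hold one. TGANTCA, held by 6.75% of promoters, was not found in these windows. In the Krt8 and Krt18 windows none of these letters was found, and the 2 genes are 23873 bases apart.

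Krt8 had the highest level per length of transcript, followed by Krt19, Krt7, Upk3b, Krt18, Upk1b, Msln and, far below, Muc16. On the deposited FPKM scale, which divides counts by transcript length and library total, Krt8 averaged 15.5 FPKM over the 6 libraries, Krt19 14.7 FPKM, Krt7 12.0 FPKM and Upk3b 11.9 FPKM. Krt18 averaged 11.1 FPKM, Upk1b 9.35 FPKM, Msln 6.29 FPKM and Muc16 0.173 FPKM. Neighbours in this order from Krt8 down to Msln overlapped in their library values, and the step to Muc16 was the one without overlap (0.07 to 0.25 FPKM, against 3.78 to 9.03 FPKM for Msln). Muc16, whose product is the long mucin that carries the CA125 antigen, was nonetheless counted 30 to 119 times per library, since its transcript is long. Counts of all 8 members were whole numbers in all 6 libraries, so they gave no sign of reads divided between genes. Whole counts were usual, since 8.50% to 9.12% of all values per library were not whole. They do not settle the genes overlapping Krt7 and Krt8 described below.

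Other listed keratins, uroplakins and mucins averaged under 1 FPKM, below 7 of the 8 members, while several of them were above Muc16. Of 34 other keratins, 5 were tested, and the highest were Krt10 at 0.855 FPKM, Krt80 at 0.510 FPKM and Krt79 at 0.452 FPKM on average. Their summed level was 7.71 to 8.01 CPM of the library total (counts scaled to a common library size) in TG and 7.24 to 8.18 CPM in WT ovaries. None of the 4 other uroplakins had enough counts to be tested, and Upk1a, the highest, measured 0.25, 0.20 and 0.10 FPKM in TG ovaries and 0.19, 0.24 and 1.80 FPKM in WT ovaries, in the order of replicates 1 to 3. Upk3a and Upk3bl averaged 0.128 and 0.0650 FPKM. Of the 10 other mucins 3 were tested (Muc1, Muc13 and Muc5b), with averages of 0.348, 0.265 and 0.152 FPKM and log2 fold changes (TG over WT) between -0.73 and -0.61, and edgeR called 0 of them, with 0 at an unadjusted p under 0.05.

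TG replicate 2 and WT replicate 3 stood apart from the other libraries in these genes, one in each genotype. The 8 members summed to 139, 84.9 and 138 CPM in TG ovaries and to 162, 163 and 77.7 CPM in WT ovaries. Here and below, library values are listed in the order of replicates 1, 2 and 3, and CPM is normalised with TMM factors unless the library total is named. The groups overlapped, and each genotype had a single low library. In 7 of the 8 members TG replicate 2 and WT replicate 3 were the lowest pair of the 6 libraries, a position they held in 9.08% of all tested genes. Over the 15 possible pairs of libraries that share ran from 3.31% to 11.9%. The exception was Krt8. Whole-tissue RNA cannot tell fewer cells of a type from less RNA per cell.

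Upk3b varied most. This gene, a membrane glycoprotein of mesothelial and urothelial cells (chromosome 5, 136038496 to 136044993 on GRCm38, to which mm10 corresponds), measured 27.0, 8.50 and 27.8 CPM in TG ovaries and 30.4, 32.3 and 6.99 CPM in WT ovaries. Highest over lowest, the libraries of Upk3b differed 3.27-fold within TG and 4.63-fold within WT. Of the 11843 genes with a mean of at least 4 CPM, 0.0929% had a larger spread within genotypes than Upk3b (pooled SD of log2 CPM 1.11, against a median of 0.13 over these genes). Upk1b, a tetraspanin (chromosome 16, 38773182 to 38800203), measured 18.2, 10.1 and 15.7 CPM in TG ovaries and 19.5, 20.2 and 6.05 CPM in WT ovaries. Again both groups held one low library, and the WT value of replicate 3 lay below every TG library.

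**Figure D1:**
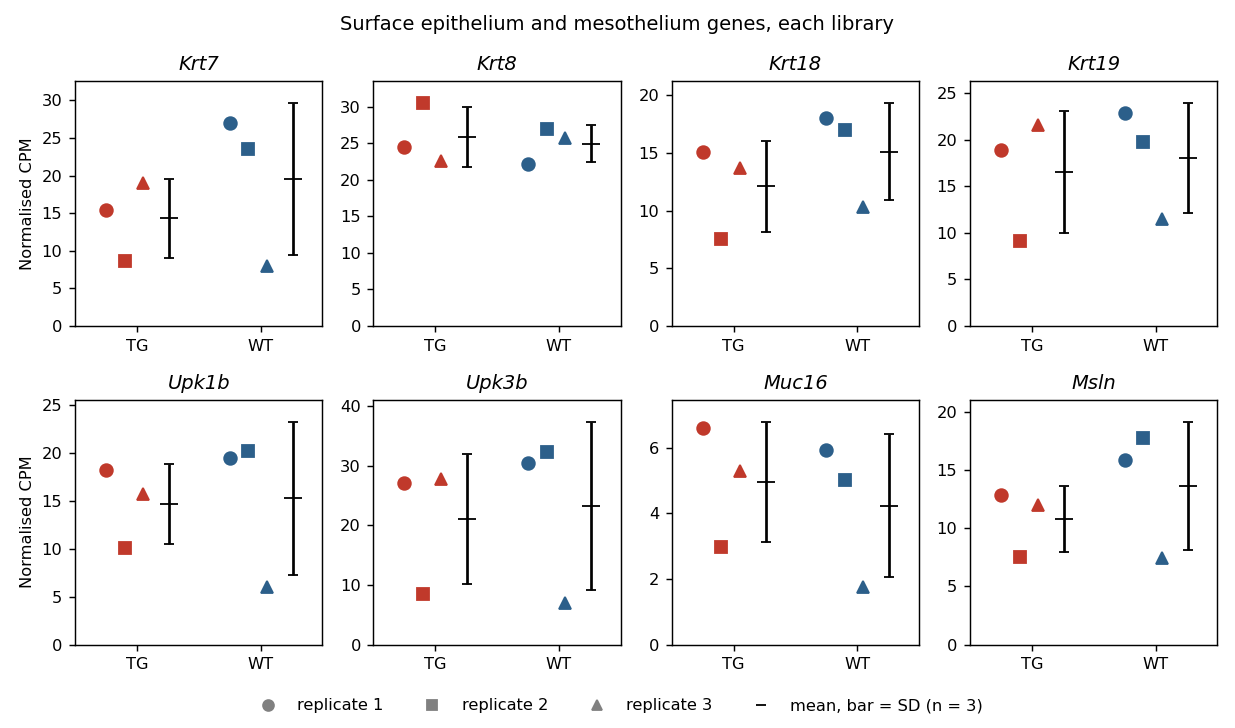
Normalised CPM of the 8 members (y axis, from 0) in each TG and WT library, with replicates as marker shapes and mean ± SD in black (n = 3 each). TG replicate 2 (red square) and WT replicate 3 (blue triangle) are the lowest pair in 7 panels, while in Krt8 they are 30.5 and 25.7 CPM among values of 22.2 to 30.5 CPM.

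The 2 cell-surface glycoproteins were also lowest in TG replicate 2 and WT replicate 3, while the order of their other libraries differed. Msln, the GPI-anchored protein mesothelin (chromosome 17, 25748613 to 25754378), measured 12.9, 7.52 and 12.02 CPM in TG ovaries and 15.8, 17.7 and 7.40 CPM in WT ovaries. Muc16, to which mesothelin binds (chromosome 9, 18495445 to 18674821), measured 6.60, 2.99 and 5.31 CPM in TG ovaries and 5.93, 5.03 and 1.76 CPM in WT ovaries. Between genotypes their means differed in opposite directions, Msln being lower and Muc16 higher in TG, and neither difference passed the test.

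Among the keratins, Krt7, Krt18 and Krt19 shared the pattern and Krt8 did not. Krt7 (chromosome 15, 101412403 to 101427806) measured 15.4, 8.62 and 19.0 CPM in TG ovaries and 26.9, 23.6 and 7.99 CPM in WT ovaries. Krt19, which lacks the tail domain of other keratins (chromosome 11, 100140810 to 100145926), measured 18.9, 9.13 and 21.6 CPM in TG ovaries and 22.9, 19.8 and 11.5 CPM in WT ovaries. Krt18 (chromosome 15, 102028216 to 102032026) measured 15.04, 7.58 and 13.6 CPM in TG ovaries and 18.1, 16.96 and 10.3 CPM in WT ovaries. For these 3 genes the groups overlapped, and highest over lowest the libraries differed 1.98-fold to 2.36-fold within TG and 1.75-fold to 3.37-fold within WT.

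Krt8, the usual partner of Krt18 (chromosome 15, 101996711 to 102004342), measured 24.5, 30.5 and 22.6 CPM in TG ovaries and 22.2, 27.0 and 25.7 CPM in WT ovaries. It was the steadiest member, 1.35-fold from highest to lowest within TG and 1.22-fold within WT, and TG replicate 2 was its highest library. The ratio of Krt8 to Krt18 on the FPKM scale was 1.22, 3.03 and 1.25 in TG ovaries and 0.924, 1.20 and 1.87 in WT ovaries, so the libraries with the least Krt18 held the most Krt8 for each Krt18. From lowest to highest library this ratio differed 3.28-fold. The ratios to Krt19 differed 1.59-fold for Msln, 1.82-fold for Krt7 and 2.85-fold for Upk3b. On its library values Krt8 did not follow the other 7 members, and which cells of the ovary it came from was not tested. In the GENCODE vM21 annotation exons of Krt8 overlap those of the long non-coding gene Gm36026, and exons of Krt7 those of Gm671, both on the opposite strand. The strandedness of the counting is not given in the sources used here, so reads of these partners cannot be told apart.

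No difference between TG and WT ovaries passed the test in any of the 8 members. Of the 14124 genes 1.05% passed the test in edgeR (adjusted p under 0.05), and of the 8 members 0 passed, with 0 at an unadjusted p under 0.05, against 4.08% of all tested genes. DESeq2, which called 1.44% of all genes, and limma-voom, which called 0.977%, also called 0 members, with 0 at an unadjusted p under 0.05 in either tool. In no member were the TG and WT libraries free of overlap, as they were in 8.25% of all tested genes. The median log2 fold change of the members was -0.14, against 0.00 over all genes tested, and 6 of the 8 were below 0. Dennd1a was higher in every TG library, at 570, 582 and 588 CPM in TG ovaries and 44.6, 39.5 and 49.3 CPM in WT ovaries. Counts per gene do not separate reads of the transgene from those of the mouse's own gene.

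Intervals were wide for every member but Krt8. Krt7 averaged 14.3 ± 5.26 CPM in TG ovaries and 19.5 ± 10.1 CPM in WT ovaries (SD, n = 3 each), which gives a log2 fold change of -0.45 (95% interval -1.37 to 0.47, SE 0.41, adjusted p = 0.9997 in edgeR). For Krt18 it was -0.32 (SE 0.27), with 12.1 ± 3.97 CPM in TG ovaries and 15.1 ± 4.18 CPM in WT ovaries, and for Krt19 -0.13 (SE 0.32), with 16.5 ± 6.55 CPM in TG ovaries and 18.1 ± 5.88 CPM in WT ovaries. Krt8 averaged 25.9 ± 4.11 CPM in TG ovaries and 25.0 ± 2.50 CPM in WT ovaries, which gives a log2 fold change of 0.05 (95% interval -0.25 to 0.35, SE 0.13). That interval spans 0.841-fold to 1.27-fold.

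Upk3b averaged 21.1 ± 10.9 CPM in TG ovaries and 23.3 ± 14.1 CPM in WT ovaries (SD, n = 3 each), which gives a log2 fold change of -0.14 (SE 0.54), and its 95% interval of -1.35 to 1.07 spans 0.392-fold to 2.09-fold. For Upk1b the log2 fold change was -0.06 (95% interval -0.93 to 0.82, SE 0.39), with 14.7 ± 4.15 CPM in TG ovaries and 15.3 ± 7.99 CPM in WT ovaries. Msln averaged 10.8 ± 2.87 CPM in TG ovaries and 13.7 ± 5.50 CPM in WT ovaries, which gives a log2 fold change of -0.34 (95% interval -1.04 to 0.36, SE 0.31). Muc16 averaged 4.97 ± 1.83 CPM in TG ovaries and 4.24 ± 2.19 CPM in WT ovaries, which gives a log2 fold change of 0.22 (95% interval -0.72 to 1.16, SE 0.42). A 2-fold difference of Upk3b in either direction lies inside its interval, so it is not excluded.

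TG replicate 2 and WT replicate 3 were then left out together. They were chosen because they were the low libraries of these same genes, so the smaller spread that remains follows from that choice, and the values are given as a description without intervals or p-values. With the 2 remaining libraries of each genotype the log2 fold change was -0.56 for Krt7, -0.43 for Msln, -0.29 for Krt18, -0.23 for Upk1b and -0.20 for Upk3b. It was -0.078 for Krt19, -0.065 for Krt8 and 0.12 for Muc16. The median was -0.21 and 7 of 8 were below 0, which describes the libraries kept and is not a test.

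**Figure D2:**
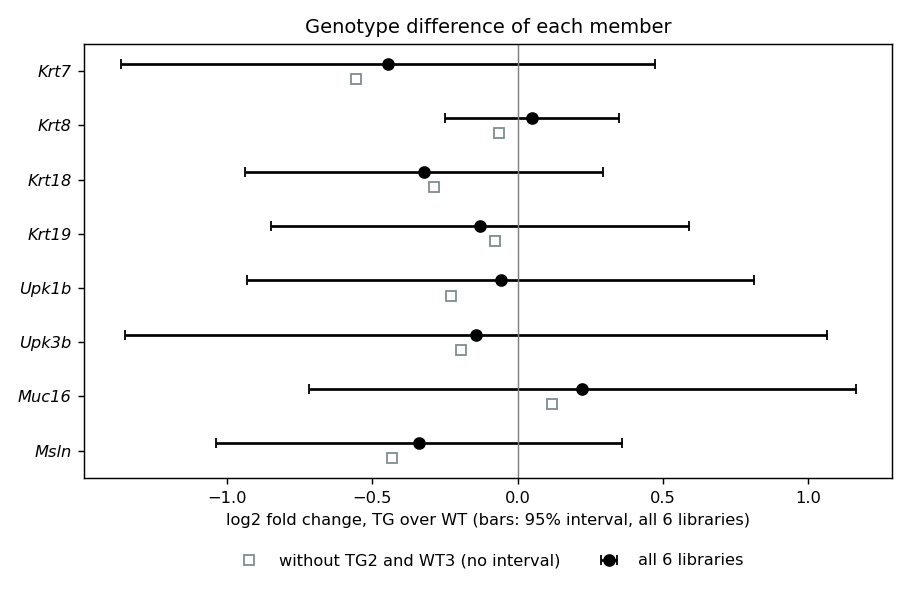
Log2 fold change (TG over WT, x axis) of each member from edgeR, for all 6 libraries (filled circles, bars are 95% intervals) and without TG replicate 2 and WT replicate 3 (open squares, no interval, since these libraries were chosen as the low ones in these genes). With all libraries every interval includes 0.

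The other surface epithelium and mesothelium genes listed here shared the library pattern in part, and none passed the test between genotypes. Of 18 listed genes 16 were tested, all but Anxa8 and Calb2, and edgeR called 0 of them, with 0 at an unadjusted p under 0.05. Their median log2 fold change was -0.01, and they ranged from -0.57 to 0.13. In 10 of the 16 TG replicate 2 and WT replicate 3 were the lowest pair, against 9.08% of all tested genes. The levels of Gpm6a, a neuronal-type membrane glycoprotein also made by mesothelium, were 11.5, 5.11 and 9.86 CPM in TG ovaries and 13.9, 13.7 and 4.87 CPM in WT ovaries. Lrrn4, a leucine-rich repeat protein used as a mesothelial marker, measured 6.05, 3.33 and 6.42 CPM in TG ovaries and 7.17, 6.51 and 1.59 CPM in WT ovaries.

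The most abundant genes of that list varied less between libraries. Aldh1a2, a retinoic acid synthesising enzyme, averaged 65.3 FPKM, the laminin receptor Bcam 50.8 FPKM and the membrane-cytoskeleton linker Ezr 40.6 FPKM, all above the 8 members. From highest to lowest library Aldh1a2 differed 1.23-fold, Bcam 1.48-fold and Ezr 1.31-fold. Wt1, a transcription factor of mesothelium and of granulosa cells, differed 1.51-fold. Ezr was highest in TG replicate 2 at 137 CPM, like Krt8.

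**Figure D3:**
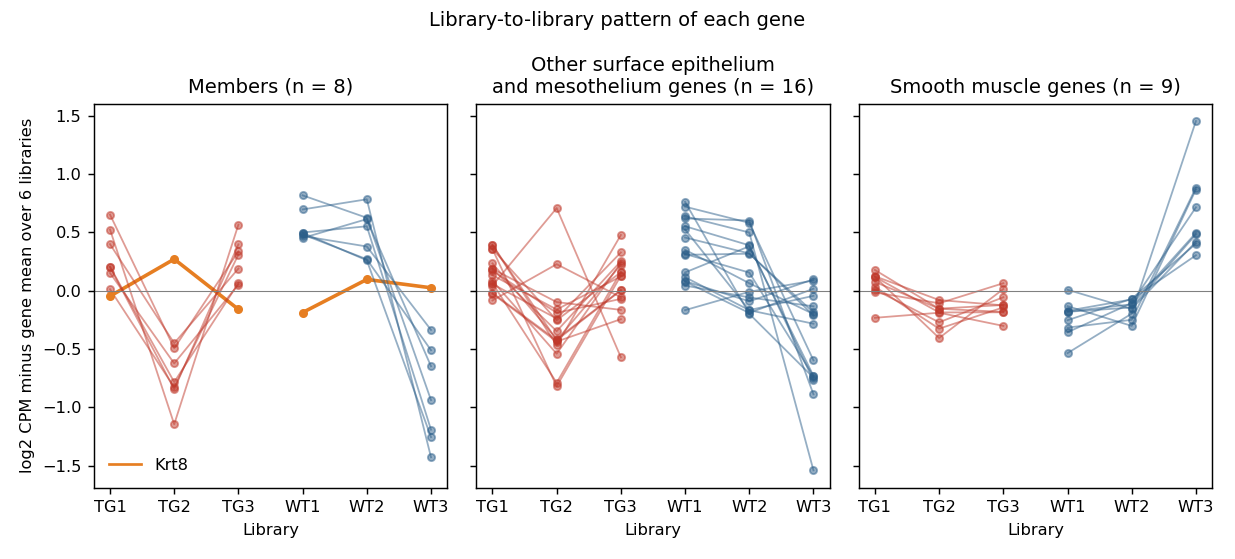
Log2 CPM of each gene minus its own mean over the 6 libraries (y axis) by library (x axis), for the 8 members, 16 other surface epithelium and mesothelium genes and 9 smooth muscle genes. Lines join the values of a gene within a genotype; TG replicate 2 and WT replicate 3 are low for 7 members, Krt8 (orange) is not, and all 9 smooth muscle genes are highest in WT replicate 3.

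Genes closest in pattern to the members included further genes of that list. Over the 6 libraries the 5 genes closest to the mean of Upk1b, Upk3b, Muc16 and Msln, by root-mean-square difference of centred log2 CPM, were Pkhd1l1 (0.12), Gpm6a (0.14), Unc45b (0.17), Lrrn4 (0.20) and Egfl6 (0.20), where the median gene differed by 0.66. Pkhd1l1 measured 8.44, 3.68 and 9.33 CPM in TG ovaries and 10.02, 9.25 and 3.11 CPM in WT ovaries. The 5 closest to the mean of the 4 keratins were Plxna4 (0.10), Lmbrd2 (0.12), Lipg (0.12), Zfp982 (0.12) and the epithelial cadherin Cdh1 (0.13), where the median gene differed by 0.38. That mean includes Krt8, which did not share the pattern, so it is not the profile of Krt7, Krt18 and Krt19 alone. Cdh1 measured 6.33, 3.50 and 6.77 CPM in TG ovaries and 8.30, 7.55 and 5.23 CPM in WT ovaries.

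Most of the general epithelial adhesion genes did not share the low pair of the members. Of 21 listed genes 17 were tested and edgeR called 0. An unadjusted p under 0.05 was found in edgeR for 2 of the 17 (Spint1 and Dsp), against 4.08% of all tested genes. TG replicate 2 and WT replicate 3 were the lowest pair in 2 of the 17, Epcam and St14, against 9.08% of all tested genes. These 4 names were chosen after their values were seen. Epcam, the epithelial cell adhesion molecule, measured 10.1, 4.88 and 7.99 CPM in TG ovaries and 13.6, 12.7 and 5.87 CPM in WT ovaries. Spint2, Jup and Pkp2, the most abundant at 52.4, 39.1 and 10.1 FPKM, had log2 fold changes of -0.18, -0.04 and 0.06. Desmoplakin, the product of Dsp, anchors keratin filaments at desmosomes. Dsp was highest in TG replicate 2 like Krt8, at 99.9 CPM, as were 6 of the 17 tested genes of this list with Dsp included. The share of all genes highest in that library was not computed.

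Summed markers of oviduct and smooth muscle were highest in WT replicate 3, and those of fat in TG replicate 2. The 14 oviduct epithelium genes summed to 38.4, 35.7 and 33.2 CPM of the library total in TG and to 31.5, 28.1 and 77.3 CPM in WT ovaries, so TG replicate 2 did not stand apart. Ovgp1, the oviductal glycoprotein, measured 5.99, 2.93 and 1.17 CPM in TG ovaries and 1.35, 0.602 and 40.9 CPM in WT ovaries. It was the largest part of the oviduct sum in WT replicate 3, so that sum rests mainly on a single gene. Of the 5 tested oviduct genes 3 were highest in WT replicate 3, Cfap126 narrowly (7.46 CPM, against 7.41 CPM in TG replicate 2), while Tppp3 and Rsph1 were not. The 9 smooth muscle genes summed to 1716, 1429 and 1456 CPM of the library total in TG and to 1346, 1456 and 2235 CPM in WT ovaries. The muscle sum of TG replicate 2 was close to that of TG replicate 3 and above that of WT replicate 1. All 9 muscle genes were highest in WT replicate 3, and the share of all tested genes highest in that library was not computed. The 8 adipocyte genes in the table, of 9 listed, summed to 25.4, 189.7 and 27.5 CPM of the library total in TG and to 19.3, 15.5 and 37.1 CPM in WT ovaries. Cfd, the adipocyte protease adipsin, measured 1.28, 86.8 and 1.52 CPM in TG ovaries and 0.916, 0.383 and 9.45 CPM in WT ovaries. No gene of these 3 lists was at 0 in every library, and their part in the pattern of the members was not tested. Ovgp1 was named after its values were seen.

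**Figure D4:**
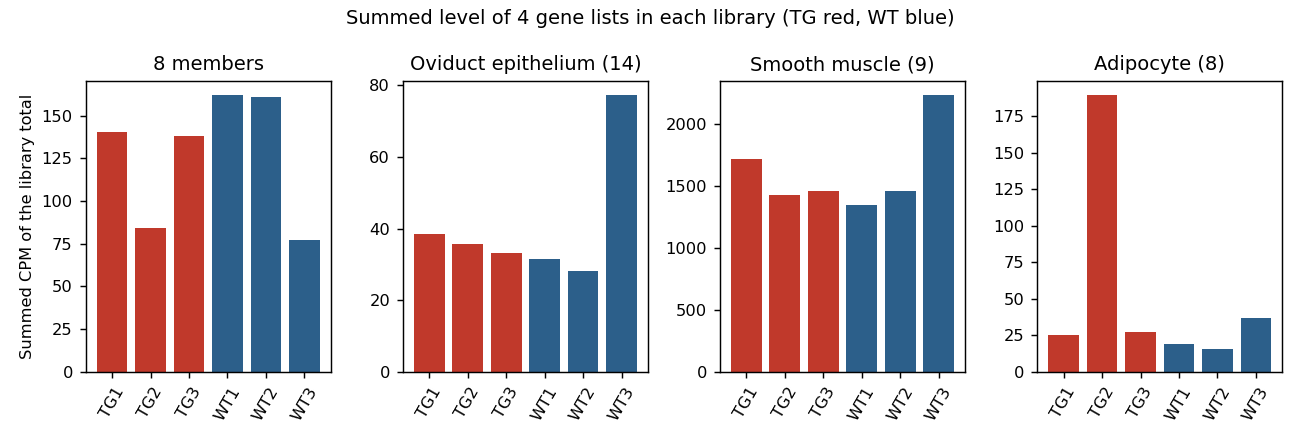
Summed CPM of the library total (y axis, from 0) of 4 gene lists in each TG (red) and WT (blue) library. The members are lowest in TG replicate 2 and WT replicate 3, the adipocyte sum is highest in TG replicate 2 and the oviduct and smooth muscle sums are highest in WT replicate 3. Ovgp1 is the largest part of the oviduct sum in WT replicate 3.

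In these 3 lists edgeR called 0 genes, and 2 adipocyte genes, Fabp4 and Plin1, had an unadjusted p under 0.05. Over all tested genes that share was 4.08%. Of 14 oviduct genes 5 were tested (median log2 fold change -0.19), of 9 smooth muscle genes 9 (median -0.18) and of 8 adipocyte genes 3 (median 2.13, and 0.15 without TG replicate 2). The median is the value of Fabp4, a fatty acid carrier, which measured 3.996, 48.1 and 5.77 CPM in TG ovaries and 3.50, 3.94 and 5.81 CPM in WT ovaries. Without TG replicate 2 the log2 fold change of Cfd turned to -1.34, against 3.08 with all libraries. That of Plin1 changed little, from 0.49 (adjusted p = 0.58 in edgeR) to 0.44. Plin1 measured 18.8, 20.8 and 19.2 CPM in TG ovaries and 14.1, 10.9 and 16.9 CPM in WT ovaries, without overlap. The oviduct-list genes Tppp3, higher in TG, and Rsph1, lower in TG, were also without overlap. Of all tested genes 8.25% were without overlap. The most abundant oviduct-list genes, Tppp3 at 11.5 FPKM, Cfap126 at 8.02 FPKM and Rsph1 at 3.77 FPKM, were highest in TG replicate 1, WT replicate 3 and WT replicate 1, in that order. Acta2, Tagln and Actg2 led the muscle list at 302, 199 and 98.5 FPKM. Fabp4, Cfd and Plin1 led the adipocyte list at 24.9, 21.9 and 9.86 FPKM.

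Genes of ovarian cell types were abundant, as the tissue label calls for. The granulosa genes Inha, Inhba and Nr5a2 averaged 3083, 165 and 134 FPKM, the steroidogenic genes Cyp11a1, Star and Cyp17a1 7782, 507 and 281 FPKM, and the oocyte genes Zp3, Zp2 and Gdf9 24.1, 21.8 and 21.7 FPKM. Over all genes of these lists, 7 in each, edgeR called 0, with 0, 1 and 0 at an unadjusted p under 0.05 and medians of 0.10, -0.01 and 0.03. TG replicate 2 and WT replicate 3 were the lowest pair for 0 of these 21 genes, against 9.08% of all tested genes. With so few genes, 0 is not far from that share. All 7 oocyte genes were highest in WT replicate 3, for which no share over all genes was computed. Library totals ran from 17075484 to 17763323 counts in TG and from 17106719 to 18516171 counts in WT. TG replicate 2 had 17593764 counts and WT replicate 3 had 17106719.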

How the data were processed

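Total RNA of ovary was sequenced in 6 libraries. Bowtie2, RSEM (1.3.1) and DESeq2 (1.4.5) are listed with the build mm10, but without their roles, per the submitters' processing notes. The table deposited by the authors holds estimated counts per gene and library, per the file headers. A second set of columns, deposited without a unit, was read as FPKM from the values, since counts, values and transcript lengths imply library totals of 94.0% to 94.4% of the summed counts. The deposited group averages were not used.

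Estimated counts were rounded. The test was that of edgeR 4.0.16 under R 4.3.3 (TMM, filterByExpr with a minimum count of 10 and total of 15, quasi-likelihood, two-sided, Benjamini-Hochberg over 14124 genes, threshold 0.05, no covariate). Standard errors come from the fold change and its F statistic. Fold changes are TG over WT. The labels do not say that replicates are separate litters or extractions, so p-values measure the spread between these samples. No 2 libraries of a genotype were alike within counting error (chi-square per degree of freedom 7.94 to 21.9). The fit was tested on simulated counts drawn independently for each gene, which does not bear on a pattern that genes share across libraries.

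Members and gene lists were chosen with earlier results of these data known. The genes named are the 8 members, Dennd1a, the 3 most abundant genes of each list or family, and the 5 genes of at least 5 CPM closest to each member profile (log2 CPM, prior count 2). Other names were chosen after their values were seen, including Wt1, Epcam, St14, Spint1, Dsp and Ovgp1. Alternatives were other factors and filters, a replicate block, left-out libraries, DESeq2 1.42.0, limma 3.58.1 with voom, and limma-trend on log2(FPKM + 1) or log2(FPKM + 0.1).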

Additional observations from a re-analysis of the deposited data

How the results depend on the processing

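No member was called under any alternative, and the count over all genes ran from 119 without TG replicate 2 and WT replicate 3 to 204 in DESeq2, against 149. Since TG replicate 2 and WT replicate 3 were chosen as low in the members, leaving both out is no independent test of the members. Leaving out a single library gave 122 to 178 called genes, 0 to 0 members, and log2 fold changes of -0.82 to -0.15 for Krt7, -0.085 to 0.14 for Krt8, -0.53 to -0.078 for Krt18, -0.37 to 0.16 for Krt19, -0.44 to 0.20 for Upk1b, -0.57 to 0.23 for Upk3b, -0.14 to 0.54 for Muc16 and -0.63 to -0.11 for Msln. The direction of Krt8, Krt19, Upk1b, Upk3b and Muc16 therefore depended on which libraries were kept. Krt8 was also below 0, at -0.065, without TG replicate 2 and WT replicate 3 together. Upk1b was above 0 with the replicate block (0.041), limma-voom (0.072) and limma-trend with a pseudocount of 1 (0.072) or 0.1 (0.099). Krt7, Krt18 and Msln stayed below 0 in all 17 alternatives. The log2 ratio of the summed members, -0.16, ran from -0.43 to 0.043 with single libraries left out and was -0.23 without both low libraries, an alternative chosen after seeing the data. In the theca and stroma list 1 gene, Cyp17a1, was called in DESeq2 and 0 to 1 with single libraries left out, the cause of which was not tested. All other list counts stayed at 0. Muc16, under 1 FPKM throughout, was not in the FPKM fits. With the replicate number as a block 159 genes and 0 members were called. Same-numbered TG and WT libraries had deviations correlated at 0.228, 0.0797 and 0.0935, against -0.130 to 0.0346 for the other pairs. Each library thus correlated best with its own number, though weakly. The labels do not say that the numbers pair libraries, so the main test has no block. Whether the libraries are paired was not settled.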
